A study of Mus musculus with 6 samples.

Results

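Glycolysis and lactate export genes were examined in mammary tumors and in the adjacent normal mammary glands of BK5.ATF3 transgenic mice. The set was defined by gene symbol and covers glucose uptake (Slc2a1), the hexokinases (Hk1, Hk2), the phosphofructokinases (Pfkp, Pfkl), the lower part of the pathway (Aldoa, Pgk1, Eno1) and the formation and export of lactate (Ldha, Slc16a3). Of the 10 listed genes, 9 were found among the 15280 genes of the expression table, and Eno1 is not analysed here. RNA-Seq had been performed on 6 libraries from 3 parous transgenic females, with 1 tumor (T11035, T11640, T9232) and the matched adjacent gland (M11035, M11640, M9232) of each mouse. In this line the bovine keratin 5 promoter drives ATF3 in basal epithelial cells, and both tissues carry the transgene, so the contrast is tumor against transgenic gland and not against wild type. Tissue was collected at a tumor length of 1.5 cm, and the age of onset in this line spans months 6 to 12. Whole tissue was sequenced, so that fewer cells of a type and less RNA per cell cannot be told apart for any gene below.

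Glycolysis splits glucose into pyruvate in the cytosol, with a small gain of ATP at each pass. Facilitative transporters let glucose into the cell, hexokinases trap it as glucose 6-phosphate, and phosphofructokinase makes the committed step of the pathway. Pyruvate is then either imported into mitochondria and oxidized, or reduced to lactate by lactate dehydrogenase and exported with a proton by monocarboxylate transporters. Most steps have several isoforms with different tissue distributions: Slc2a4, Pfkm, Pgam2 and Eno3 are the forms typical of muscle, and Slc2a4 is also the insulin-regulated transporter of fat. Many tumors take up much glucose and release lactate even in the presence of oxygen. Hypoxia-inducible factors, which bind DNA at sites that often hold the core ACGTG, are known regulators of many genes of the pathway.

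Because that core has often been described in this pathway, the stretch upstream of the start site is shown for both members that were called higher (Slc2a1 and Slc16a3), for Pgk1, which lay just under the fold threshold, and for Ldha, which was at a like level in both tissues. Each line gives the 250 bases before a RefSeq start (build GRCm38.p6, + strand, 5′ to 3′), and capitals mark ACGTG or its reverse complement CACGT. Where they overlap they form CACGTG, which is also the E-box bound by Myc and other factors. No other form of the site was searched for, so a missing match below covers these letters only.
Slc2a1, chr4:119108495-119108744: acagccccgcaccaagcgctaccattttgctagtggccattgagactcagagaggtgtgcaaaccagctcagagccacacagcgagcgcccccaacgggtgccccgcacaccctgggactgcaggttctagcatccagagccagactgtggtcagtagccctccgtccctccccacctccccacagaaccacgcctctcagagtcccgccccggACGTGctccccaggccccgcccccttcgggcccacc
Slc16a3, chr11:120948817-120949066: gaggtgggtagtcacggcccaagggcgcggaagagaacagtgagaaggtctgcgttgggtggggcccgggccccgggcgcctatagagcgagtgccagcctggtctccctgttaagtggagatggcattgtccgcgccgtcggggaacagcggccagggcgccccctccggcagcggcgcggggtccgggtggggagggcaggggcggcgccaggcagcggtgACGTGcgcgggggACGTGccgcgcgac
Pgk1, chrX:106186850-106187099: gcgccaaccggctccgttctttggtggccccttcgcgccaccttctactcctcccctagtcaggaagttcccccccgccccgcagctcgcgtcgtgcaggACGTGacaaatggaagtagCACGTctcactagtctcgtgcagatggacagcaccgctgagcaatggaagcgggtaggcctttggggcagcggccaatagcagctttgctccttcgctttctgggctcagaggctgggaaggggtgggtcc
Ldha, chr7:46845554-46845803: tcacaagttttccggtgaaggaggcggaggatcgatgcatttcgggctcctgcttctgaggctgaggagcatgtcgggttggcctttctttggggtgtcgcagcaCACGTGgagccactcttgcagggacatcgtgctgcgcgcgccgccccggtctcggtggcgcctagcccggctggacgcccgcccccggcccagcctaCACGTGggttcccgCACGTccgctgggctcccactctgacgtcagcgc
Slc2a1 held the core once and Slc16a3 held it at 2 places. Pgk1 also had it at 2 places, once on each strand, and Ldha at 3 places, 2 of which were CACGTG. Ldha has another RefSeq start (window chr7:46846832-46847081) with no match. Entries were found for all 10 listed genes, and 6 had at least 1 match on either strand at some start, the other two being Hk2 and Aldoa, while no match was found for Hk1, Pfkp, Pfkl and Eno1. In the same window, 16.6% of the 32851 promoter entries of the mouse table had a match, as did 23.6% of the 10726 genes of the expression table with an entry, counted over all their starts. Of the genes with a match, Slc2a1 and Slc16a3 were called higher and Aldoa lower, and Hk2, Pgk1 and Ldha were not called, as described next. A match of letters is a description and not a bound site, and its relation to the calls was not tested.

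Of the 9 genes, 2 rose in the tumors (Slc2a1 and Slc16a3), 1 fell (Aldoa) and 6 were not called. A gene was called when its adjusted p, from limma on log2(CPM + 0.5) with Benjamini-Hochberg correction over all genes, was at most 0.05 and its fold change at least 2. Over all 15280 genes, 14.5% were called higher and 13.7% lower by the same rule, so 2 and 1 calls among 9 genes are near the shares of all genes. For 4 of the 9 genes (Slc2a1, Slc16a3, Pgk1 and Aldoa) the tumors and glands did not overlap, and this held for 54.0% of all genes. The median log2 fold change of the 9 genes was 0.18, and that of all genes was -0.00. In total, 4 genes (Slc2a1, Slc16a3, Pgk1 and Hk1) were higher in the tumor than in the gland of the same mouse in all 3 mice. Aldoa was lower in all 3. For Hk1 the differences were small, and its groups overlapped. The share of all genes with such a pattern was not computed, so these counts are only a description. The 9 genes together amounted to 1513, 1505 and 888 CPM (fragments scaled to the authors' effective library size) in glands M11035, M11640 and M9232, and to 1274, 1464 and 1587 CPM in tumors T11035, T11640 and T9232. Gland M9232 was the lowest of the 6 libraries in this sum, and the other glands lay within the range of the tumors.

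**Figure D1:**
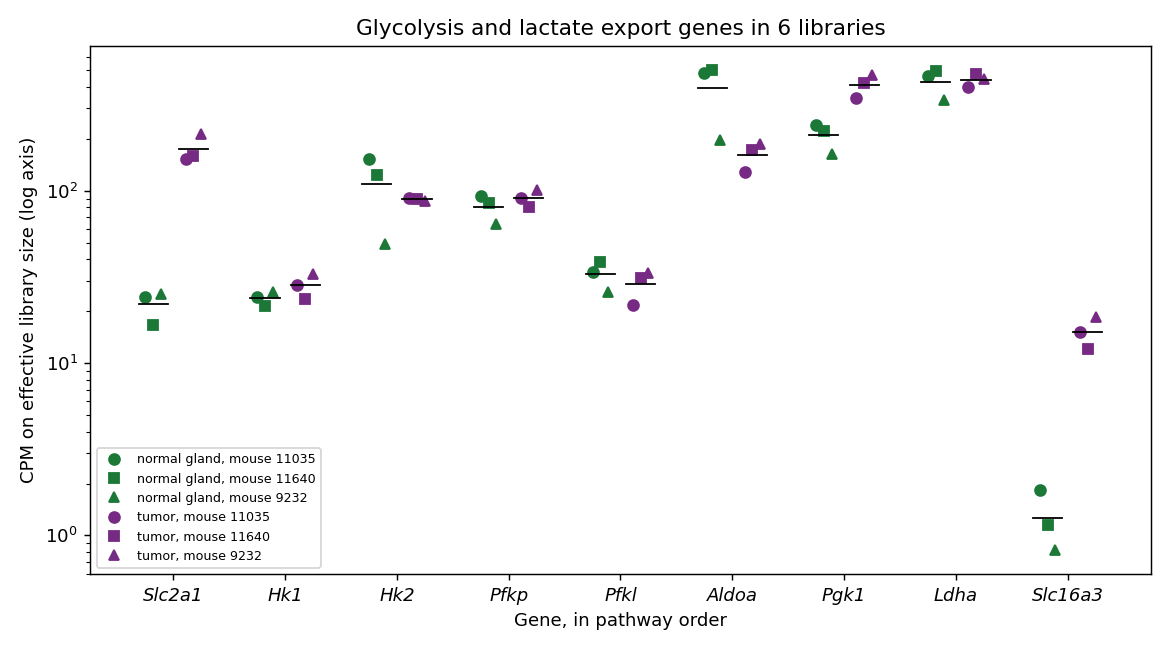
Level of each of the 9 genes in each library, in CPM on a log axis, with glands in green, tumors in purple, 1 symbol for each mouse and black bars for the mean of 3 libraries. Slc2a1 and Slc16a3 are separated by a wide gap, Pgk1 by a narrow one in the same direction and Aldoa in the other, while the remaining 5 genes overlap.

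The glands differed from each other in transcripts of cell type markers, and the part of this in the levels of the set was not tested. Transcripts of the 12 skeletal muscle markers summed to 5143 and 1951 CPM in glands M11035 and M11640 but to 12.3 CPM in gland M9232, and to between 9.83 and 24.9 CPM in the tumors. The one with the highest CPM, the fast myosin gene Myh4, read 2779, 1107 and 0.958 CPM in these glands, and Ckm, Acta1 and Pvalb were at 0 in gland M9232. Of these 12 markers 5 were called lower in tumors and 0 higher. All 12 adipocyte markers fell, with sums of 6598 to 12372 CPM in glands and 264 to 417 CPM in tumors, and Lpl, which encodes lipoprotein lipase, had the highest CPM of them. Gland M9232 stood apart in milk transcripts, with 14121 CPM of the casein gene Csn2 against 506 and 670 CPM in the other glands and at most 62.5 CPM in the tumors. The tumors carried squamous and basal epithelial transcripts: 9 of 9 squamous and 7 of 8 basal markers rose. Krt10 had the highest CPM of the squamous markers. Dst had the highest CPM of the basal markers and was the 1 that did not rise: it was not called, and every tumor was below every gland. Among other cell types, 6 of 9 neutrophil markers rose and 1 fell, 1 of 10 macrophage markers rose and 1 fell, 4 of 10 fibroblast markers rose and 1 fell, 3 of 9 endothelial markers fell, and 3 of 11 luminal markers rose while 6 fell. The transgene's namesake, the mouse gene Atf3, read 4.47, 8.09 and 22.6 CPM in the glands and 13.4, 18.3 and 19.3 CPM in the tumors, and these groups overlapped. Whether fragments of the transgene were counted under this gene is not given in the sources used here, so the values do not measure the transgene. Where both glands with muscle transcripts are left out below, the gland that is left is M9232, the one rich in milk transcripts. It also had the lowest adipocyte sum of the glands (6598 CPM, against 8361 in M11035 and 12372 in M11640). Its macrophage sum was the highest of the glands (3993 CPM, against 1108 and 2126), as was its neutrophil sum (630 CPM, against 283 and 232). Muscle, milk and these other contents thus change together and cannot be told apart.

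Slc2a1 encodes GLUT1, the basal glucose transporter of many cell types (chromosome 4, 118781316 to 118809935, + strand, mm9). It read 24.2, 16.7 and 25.3 CPM in glands M11035, M11640 and M9232 and 153, 158 and 212 CPM in tumors T11035, T11640 and T9232. Every tumor was thus far above every gland, and the tumors differed from each other by less than their distance to any gland. The means were 22.1 ± 4.69 CPM in glands and 175 ± 33.0 CPM in tumors (SD, n = 3 each), a 7.91-fold rise. On the log2 scale the change was 2.96 ± 0.21 (SE), with an adjusted p of 1.82e-05 by limma and a 95% interval of 2.48 to 3.44. Within the 3 mice the tumor exceeded its own gland by 2.63, 3.21 and 3.04 on the log2 scale.

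Other transporters of glucose moved in both directions. Of 13 other glucose and lactate transporters and their chaperones in the table, 4 rose and 2 fell. Slc2a3, the high-affinity transporter GLUT3 known from neurons and leukocytes, had the largest rise of the list. It read 24.2, 15.4 and 19.8 CPM in glands and 73.7, 243 and 357 CPM in tumors, so the tumors differed more among themselves than for Slc2a1, and T11035 was the lowest of them (log2 fold change 3.22 ± 0.50, adjusted p = 0.00119, limma). The sodium-coupled transporter Slc5a1 rose from 9.06 ± 6.76 to 61.1 ± 5.29 CPM (log2 fold change 2.91), and the transporter Slc2a10 and Emb, a chaperone of monocarboxylate transporters, rose less (1.18 and 1.13). The call of Slc2a10 was lost without M11035, M9232, T11640 or T9232 (adjusted p from 0.0508 to 0.0841, limma). It was also lost with all libraries and a pseudocount of 2, where its fold was under the threshold (0.85). That of Emb was lost without M11640, where its fold was under the threshold (0.97). The insulin-regulated transporter Slc2a4 fell most, from 32.7, 37.0 and 14.9 CPM to 3.91, 3.28 and 0.450 CPM, the last of these being at the floor of 3 fragments (log2 fold change -3.42 ± 0.59, adjusted p = 0.00203, limma). Adipocyte and muscle transcripts moved the same way as Slc2a4, with the sums given above, and their part in its change was not tested. Without both glands that hold muscle transcripts its difference was -2.62 with an adjusted p of 0.101 by limma, and the calls of Slc2a3 and Slc5a1 were kept (3.19 and 1.83).

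Neither hexokinase gene was called. Hk1 encodes the hexokinase found in most tissues (chromosome 10, 61731603 to 61842656, - strand, mm9), and it read 24.2, 21.3 and 25.7 CPM in glands and 28.3, 23.5 and 33.0 CPM in tumors. The groups overlapped and the 95% interval of the log2 difference ran from -0.19 to 0.66, which leaves out a doubling (adjusted p = 0.343, limma). Hk2 encodes the insulin-responsive form of muscle and fat that many tumors also express (chromosome 6, 82675019 to 82724448, - strand, mm9). It read 153, 124 and 49.2 CPM in glands and 91.0, 90.04 and 87.1 CPM in tumors. The tumors were nearly identical to each other, while the glands with muscle transcripts lay above them and gland M9232 below them. The log2 difference was -0.13 ± 0.36 with an interval of -0.96 to 0.70 (adjusted p = 0.803, limma), and in the single mice it was -0.75, -0.46 and 0.82. Without both glands that hold muscle transcripts it turned to 0.85, with an adjusted p of 0.0212 by limma and a fold under the threshold, whereas without gland M9232 it was -0.62 (adjusted p = 0.0211). The direction for Hk2 was thus set by which glands were used.

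The phosphofructokinase genes of the set were not called either. Pfkp, the platelet form, read 92.9, 85.1 and 63.9 CPM in glands and 90.6, 80.7 and 101 CPM in tumors (chromosome 13, 6579014 to 6648023, - strand, mm9). Its log2 difference was 0.18 ± 0.18 with an interval of -0.23 to 0.59 (adjusted p = 0.451, limma). Part of its exons is shared with Pitrm1 on the opposite strand, and whether the counting used strand is not given in the sources used here. Pfkl, the liver form, read 33.5, 38.8 and 26.0 CPM in glands and 21.8, 31.3 and 33.4 CPM in tumors (chromosome 10, 77449692 to 77472828, - strand, mm9). Here too the groups overlapped, with a log2 difference of -0.19 ± 0.23, an interval of -0.70 to 0.33 and an adjusted p of 0.541 by limma. For both genes, as for Hk2, tumor T9232 was the only one above the gland of its own mouse (by 0.65 for Pfkp and 0.36 for Pfkl on the log2 scale). The muscle form Pfkm, no member of the set, read 58.4, 24.9 and 8.89 CPM in glands and 6.51, 5.11 and 5.54 CPM in tumors. It fell by 1.96 on the log2 scale (SE 0.56, adjusted p = 0.0216, limma), in the order of the muscle marker sums among the glands, and without both glands that hold muscle transcripts the difference was -0.60 (adjusted p = 0.227). Its call was also lost without M11640 or any single tumor (adjusted p from 0.0537 to 0.0759, limma).

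The enzymes that make and break fructose 2,6-bisphosphate, the strongest activator of phosphofructokinase, split. Of the 5 in the table, 1 rose and 2 fell. Pfkfb4 rose from 2.85, 2.15 and 2.46 CPM to 7.07, 10.4 and 13.6 CPM (log2 fold change 1.82 ± 0.29, adjusted p = 0.00131, limma). Pfkfb1, known from liver and muscle, fell from 31.9, 35.7 and 22.0 CPM to 4.47, 3.54 and 2.40 CPM (-2.94), and Pfkfb3 fell from 324 ± 80.2 to 103 ± 26.7 CPM (-1.64). These 3 calls were kept without both glands that hold muscle transcripts. Pfkfb2 was not called, with 135 ± 21.2 CPM in glands and 196 ± 7.53 CPM in tumors.

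Aldoa, the aldolase of muscle and most other cells, was the gene of the set that fell (chromosome 7, 133938748 to 133944265, - strand, mm9). It read 481, 502 and 197 CPM in glands M11035, M11640 and M9232 and 128, 171 and 187 CPM in tumors T11035, T11640 and T9232. All tumors were below all glands, but gland M9232 lay close to the tumors and far from the other glands. The means were 393 ± 170.5 and 162 ± 30.2 CPM (SD, n = 3 each), a log2 fold change of -1.18 ± 0.34 with an adjusted p of 0.0237 by limma and an interval of -1.95 to -0.40. In the single mice the differences were -1.90, -1.55 and -0.08. Among the glands Aldoa was in the order of the adipocyte marker sums and not in that of the muscle marker sums. Both sums were lowest in M9232, and their part in the change of Aldoa was not tested. The muscle marker sums were high in the same glands in which Aldoa was high. Without both of these glands the log2 difference was -0.30 (adjusted p = 0.445, limma). The call was also lost on leaving out any single library other than gland M9232, with adjusted p from 0.0507 without T9232, 0.0651 without T11640, 0.0697 without M11035 and 0.0774 without M11640 to 0.0861 without T11035. Aldoc, the aldolase known from brain, fell from 22.0, 19.3 and 25.6 CPM to 7.07, 8.26 and 7.49 CPM (log2 fold change -1.48), and that call was kept without the glands with muscle transcripts (-1.69).

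**Figure D2:**
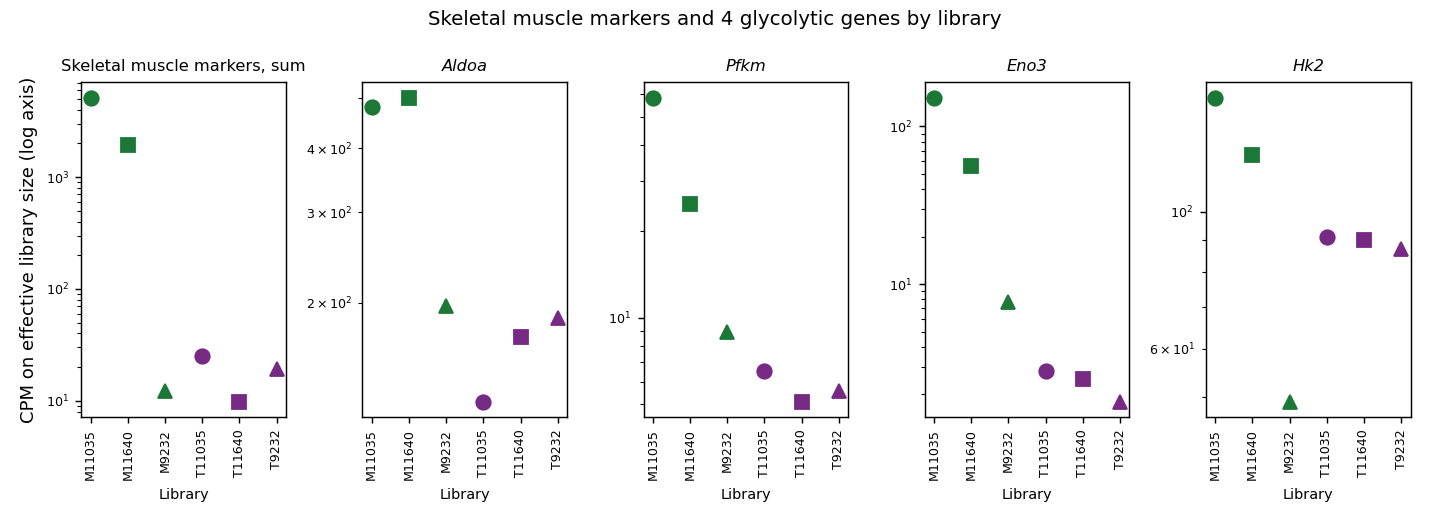
Summed CPM of 12 skeletal muscle markers and CPM of Aldoa, Pfkm, Eno3 and Hk2 in each library, each panel with its own log axis, glands in green and tumors in purple. Glands M11035 and M11640 are the highest libraries in all 5 panels, and gland M9232 sits near the tumors for Aldoa and below them for Hk2.

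Pgk1 encodes phosphoglycerate kinase, which makes the first ATP of the lower pathway (chromosome X, 103382439 to 103399038, + strand, mm9). It read 241, 223 and 164 CPM in glands and 346, 423 and 470.4 CPM in tumors, and all tumors were above all glands. The mean was 1.97 times as high in tumors (209 ± 40.2 against 413 ± 62.5 CPM, SD, n = 3 each). The log2 difference of 0.99 ± 0.19 had an adjusted p of 0.00327 by limma and an interval of 0.56 to 1.41, so that the gene passed the limit on p and fell just short of the limit on fold. It passed both without M11035 (1.10), without M11640 (1.04), without T11035 (1.11) and without both glands with muscle transcripts (1.32, adjusted p = 0.0146, limma). There are 4 other loci at least 95% identical to its transcript over at least 300 bp in the mm9 genome, so fragments could be shared with them or lost.

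Ldha encodes the lactate dehydrogenase subunit that favors the formation of lactate (chromosome 7, 54096845 to 54110997, + strand, mm9). Its levels were 460.3, 493 and 336 CPM in glands and 399.5, 474 and 444 CPM in tumors. The groups overlapped, and the log2 difference of 0.05 ± 0.17 had an interval of -0.34 to 0.44 (adjusted p = 0.85, limma), which leaves out a doubling and a halving at this depth. Its sign was not stable: it was -0.12 without gland M9232 and 0.38 without the other glands. By the same limits, 1 other locus is nearly identical to its transcript.

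Slc16a3 encodes MCT4, the monocarboxylate transporter that exports lactate from highly glycolytic cells (chromosome 11, 120809794 to 120822182, + strand, mm9). It read 1.83, 1.16 and 0.821 CPM in glands, from 9, 7 and 6 fragments, and 15.1, 12.1 and 18.4 CPM in tumors. Every tumor was above every gland, with means of 1.27 ± 0.514 and 15.2 ± 3.19 CPM (SD, n = 3 each), a 12.0-fold rise. The log2 fold change was 3.17 ± 0.30 on the log2(CPM + 0.5) scale, which understates the change of a gene this low, with an adjusted p of 7.84e-05 by limma and an interval of 2.49 to 3.85. The 3 mice gave 2.74, 2.92 and 3.84. Csnk1d lies over part of its exons on the opposite strand. The related Slc16a1 (MCT1), which carries lactate in both directions, was not called: it read 100.2, 102 and 74.0 CPM in glands and 58.4, 65.0 and 55.4 CPM in tumors, a log2 difference of -0.61 with an adjusted p of 0.0205 by limma and a fold under the threshold. Slc16a7 (MCT2) fell from 26.0, 58.1 and 33.2 CPM to 7.63, 8.78 and 5.54 CPM (-2.28).

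Slc2a1 and Slc16a3, which stand at the entry and the exit of the pathway, were called in all 17 alternatives, with log2 fold changes of 2.75 to 3.07 and 2.39 to 3.63. The 5 genes Hk1, Hk2, Pfkp, Pfkl and Ldha were called in 0 of them.

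The remaining steps of the linear route were mostly not called. Of 13 other glycolytic enzymes in the table, 2 rose and 3 fell, with a median log2 fold change of 0.10. Gpi1, which isomerizes glucose 6-phosphate, had a log2 difference of -0.15, Tpi1 of 0.62, Gapdh of 0.10, Pgam1 of 0.74 and Pkm2, the symbol of the pyruvate kinase M gene in this table, of 0.82. None of these 5 was called. For Pkm2 all tumors (225, 227 and 275 CPM) were above all glands (159.6, 155 and 103 CPM), with an adjusted p of 0.00953 by limma and a fold under the threshold. Gapdh has 47 near-identical loci in the genome, Pgam1 has 4 and Tpi1 and Gpi1 have 1 each. The enolase of neurons, Eno2, rose from 7.44 ± 0.954 to 19.0 ± 2.28 CPM (1.29), and Bpgm, which makes 2,3-bisphosphoglycerate, rose from 33.5 ± 4.89 to 80.8 ± 15.8 CPM (1.25). The muscle enolase Eno3 had the largest fall, from 152, 55.7 and 7.66 CPM to 2.79, 2.49 and 1.80 CPM (log2 fold change -3.87 ± 0.87, adjusted p = 0.00785, limma), again in the order of the muscle markers. Without both glands with muscle transcripts the fall of Eno3 was -1.53, and 4 enzymes of this list were called higher (Tpi1, Eno2, Pkm2 and Bpgm) and 2 lower (Aldoc and Eno3), with a median of 0.68. The muscle mutase Pgam2, chosen after its values were seen, read 42.7, 15.2 and 0.684 CPM in glands and 1.30, 1.31 and 1.80 CPM in tumors. It was not called by limma (log2 difference -2.25, adjusted p = 0.13) but was called lower by edgeR (adjusted p = 0.0298), by edgeR with the replicate block (adjusted p = 0.0382), by DESeq2 (adjusted p = 0.0123) and by limma without gland M9232 (adjusted p = 0.000273).

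**Figure D3:**
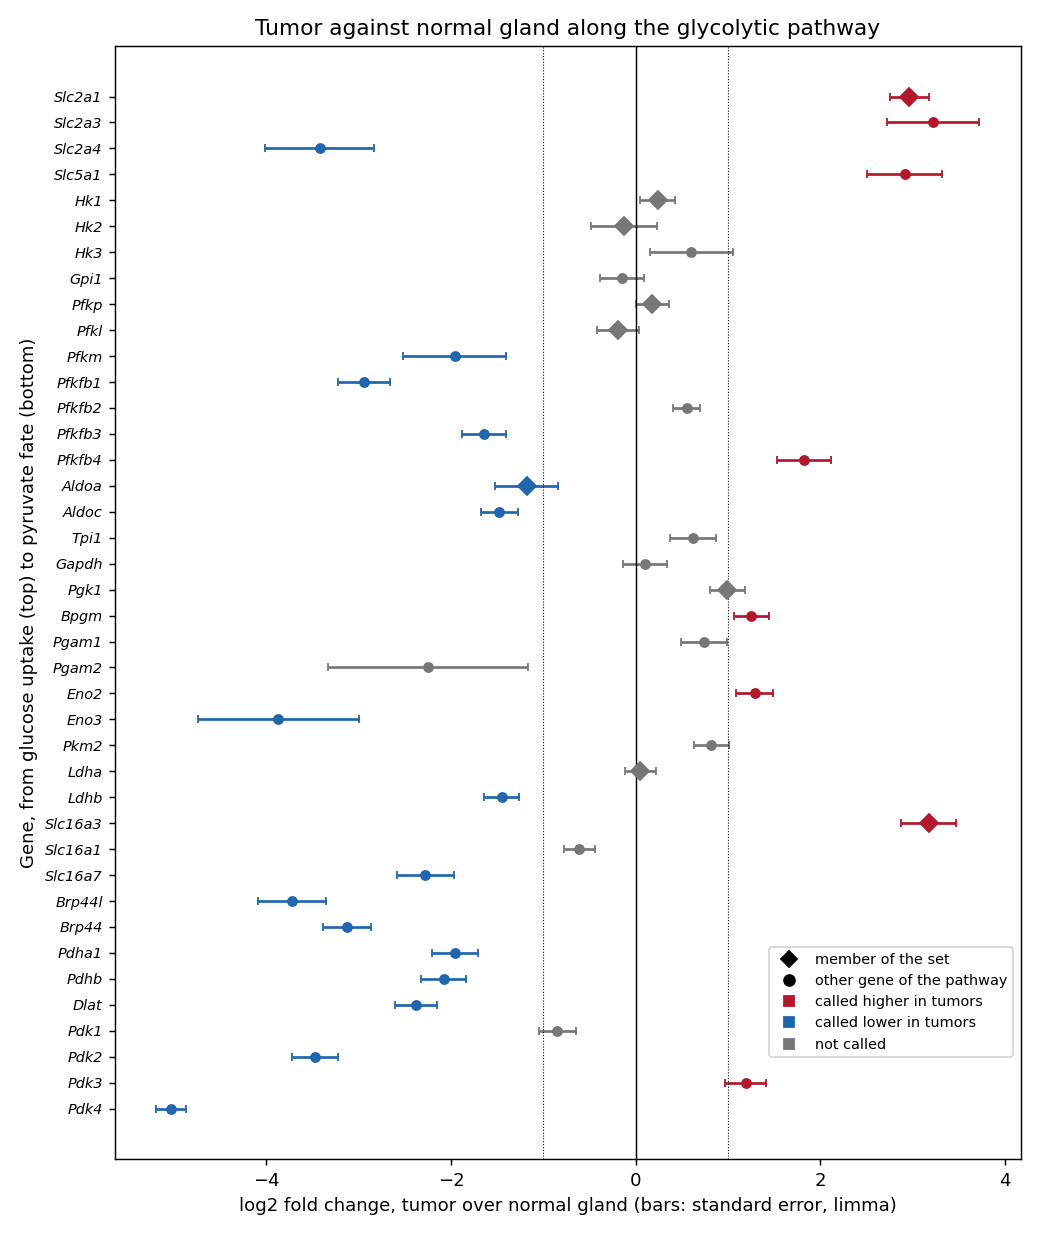
Log2 fold change of tumor over normal gland from limma with its standard error, for the genes of the pathway from glucose uptake (top) to the fate of pyruvate (bottom), with diamonds for members of the set, circles for others, red for called higher, blue for called lower and gray for not called, and dotted lines at 2-fold. Slc2a1 and Slc16a3 stand at about 3. The enzymes between them lie on both sides of zero, some within the dotted lines and others beyond them. The genes of pyruvate oxidation at the bottom lie mostly below -1.

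The genes that decide what becomes of pyruvate mostly fell. Of 16 in the table, 13 fell and 1 rose, and the median log2 fold change was -2.02. Among those that fell were Brp44l and Brp44, which form the mitochondrial pyruvate carrier (-3.72 and -3.13), and Pdha1, Pdhb and Dlat of the pyruvate dehydrogenase complex (-1.96, -2.08 and -2.38). Pcx, pyruvate carboxylase, had the largest fall. It went from 48.8, 101 and 45.8 CPM in glands to 2.61, 0.917 and 0.450 CPM in tumors (log2 fold change -5.25 ± 0.46, adjusted p = 5.34e-05, limma). The kinases that switch pyruvate dehydrogenase off moved apart. Pdk4 fell from 289, 259 and 249 CPM to 6.70, 8.13 and 8.09 CPM (-5.03), Pdk2 fell (-3.47), Pdk1 was not called (-0.85), and Pdk3 alone rose, from 15.5, 12.7 and 17.6 CPM to 26.8, 39.7 and 40.8 CPM (1.19 ± 0.22, adjusted p = 0.00316, limma). Ldhb, the lactate dehydrogenase subunit typical of oxidative tissue, fell from 85.0, 69.9 and 54.4 CPM to 23.8, 23.7 and 27.1 CPM (-1.45). Without both glands with muscle transcripts 12 of the 16 were called lower and 0 higher, with a median of -1.44 (Pdk3 0.97, adjusted p = 0.0764, limma). Adipocyte transcripts, abundant in all 3 glands, moved with this list, and their part in it was not tested.

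Ratios between isoforms of the same step were taken within a library, so that its scaling cancels. They are ratios of CPM with no correction for length, so only their shift between tissues can be read. For single genes the share without overlap was 54.0% of all genes, and no such share was computed for pairs. Of 9 pairs, 5 did not overlap between tumors and glands. Each of these had p = 0.1 in an exact two-sided permutation test, the smallest p that 3 against 3 allows, and 0.18 after adjustment over the 9 pairs, so no pair could pass. Slc2a1 had 0.739, 0.451 and 1.70 times the CPM of Slc2a4 in the glands and 39.1, 48.3 and 473 times in the tumors, the last of these resting on 3 fragments of Slc2a4. Slc16a3 had 0.0183, 0.0114 and 0.0111 times the CPM of Slc16a1 in the glands and 0.258, 0.185 and 0.332 times in the tumors. The ratio of Ldha to Ldhb was 5.42, 7.06 and 6.17 in glands and 16.8, 19.97 and 16.4 in tumors, a shift that came with the fall of Ldhb and with like values of Ldha. The ratio of Pfkp to Pfkm went from 1.59, 3.41 and 7.18 to 13.9, 15.8 and 18.2, and that of Pfkl to Pfkm from 0.575, 1.56 and 2.92 to 3.34, 6.13 and 6.03. In both, gland M9232 was the nearest to the tumors.

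The other 4 pairs overlapped. The ratio of Slc2a1 to Slc2a3 lay between 1 and 1.28 in glands and was 2.07, 0.652 and 0.595 in tumors (exact permutation p = 0.7), so tumor T11035 lay on one side of the glands and the other tumors on the other. Hk2 to Hk1 gave 6.34, 5.81 and 1.91 in glands and 3.22, 3.84 and 2.64 in tumors (exact permutation p = 0.6). The ratio of Pfkp to Pfkl had an exact permutation p of 0.2 and that of Aldoa to Aldoc of 0.9. With 3 libraries a group these p-values do not show that the ratios were alike.

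**Figure D4:**
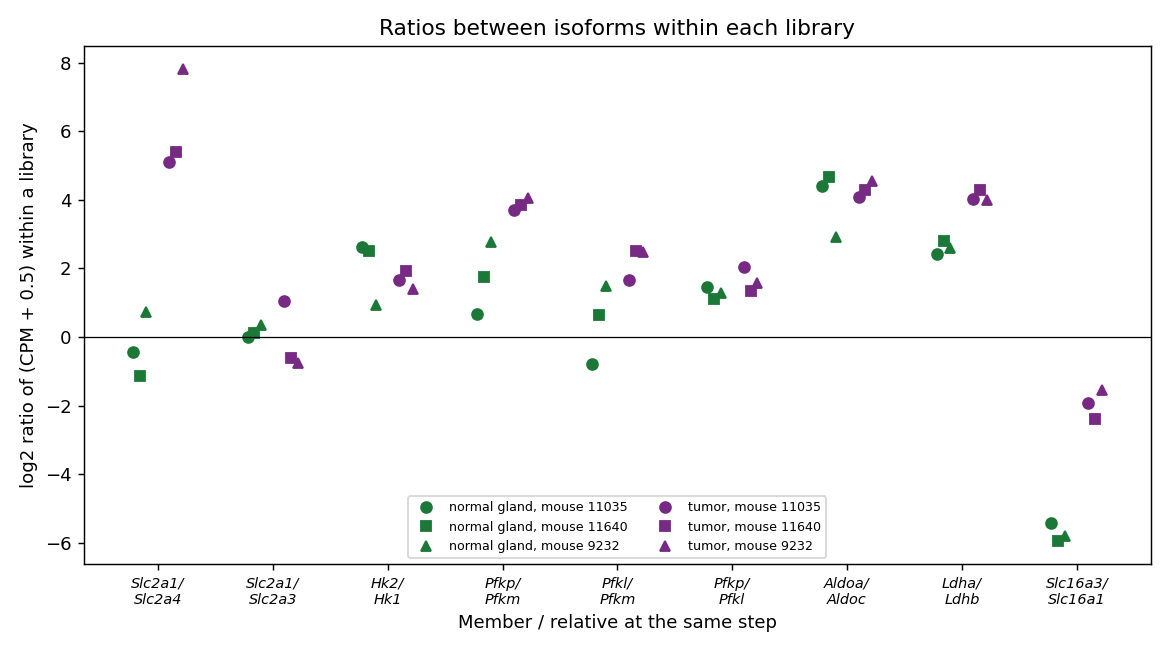
Log2 ratio of the (CPM + 0.5) of a member to that of a relative at the same step, within each library, for 9 pairs, with glands in green, tumors in purple and 1 symbol for each mouse. Tumors and glands are separated for Slc2a1/Slc2a4, Pfkp/Pfkm, Pfkl/Pfkm, Ldha/Ldhb and Slc16a3/Slc16a1 and overlap for the other 4.

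For an order of levels between the genes, the CPM was divided by the length of the longest coding transcript in kb (GENCODE vM1). In glands Aldoa (254 CPM per kb, range 127 to 324) and Ldha (243, range 190.2 to 279) led, with overlapping ranges. Pgk1 followed (115, range 89.9 to 132), overlapping Aldoa but not Ldha. Next came Hk2 (19.7, range 8.93 to 27.8) and Pfkp (19.4, range 15.4 to 22.4), then Pfkl (8.79, range 6.97 to 10.4) and Slc2a1 (8.46, range 6.40 to 9.71). The ranges of Hk2, Pfkl and Slc2a1 overlapped, so their order is not resolved. Hk1 (5.55) and Slc16a3 (0.293) were below them without overlap. In tumors Ldha (249 CPM per kb, range 226 to 268) and Pgk1 (226, range 189.9 to 258) led with overlapping ranges, followed by Aldoa (105, range 82.9 to 121). Slc2a1 stood next (66.9, range 58.6 to 81.5), above Pfkp, Hk2 and Pfkl with no overlap, and just below Aldoa. Pfkp (21.9) and Hk2 (16.2) followed without overlap, then Pfkl (7.73) and Hk1 (6.60) with overlapping ranges. Slc16a3 stayed last at 3.50 CPM per kb (range 2.78 to 4.25), although it had the largest fold change of the set.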

How the data were processed

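Total RNA from 3 tumors and the 3 adjacent glands of the same mice had been made into libraries with the Ovation RNA-Seq System V2 and sequenced as paired ends in a single lane. According to the study's methods and the submitters' processing notes (CASAVA 1.8.2, TopHat2 2.0.3, HTSeq 0.5.3p9, edgeR 3.6.1), the authors mapped reads to mm9, counted fragments per RefSeq gene, dropped genes under 10 fragments in all and deposited a normalized signal, CPM on edgeR's effective library size. Columns did not sum to the same total (952151 to 1041166), so the unit was recorded as a signal and tested on the log2 scale as planned for CPM. All values (100%, tolerance 0.02) were whole multiples of 1 fragment, which gave back 4750989 to 7806908 fragments on genes per library. A floor of 3 fragments was 0.393 to 0.610 CPM, which covers counting error only.

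Here, log2(CPM + 0.5) was fitted with limma 3.58.1 in R 4.3.3 (mean-variance trend, no block) over all 15280 genes. Alternatives used other pseudocounts, a filter at a mean of 1 CPM, other library sizes, no trend, the mouse as a block, edgeR 4.0.16 and DESeq2 1.42.0 on recovered fragments, and each library left out. Leaving out both glands with muscle transcripts was chosen after seeing the data, and the lone gland was then assumed to vary like the other groups. The tumor and gland of a number come from the same mouse, which pairs them (deviations from the group means correlated with r = 0.107, 0.151 and 0.0168 over 14712 genes). No libraries were copies (lowest chi-square per degree of freedom 12.96), and 0 sample columns were left unmapped.

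The members, lists and tests were chosen with earlier results of these data known. Named genes are the members in every library, their isoform partners, the called genes of each pathway list with the largest rise and fall, the linear steps of glycolysis and the marker of each list with the highest CPM, and other genes were named after their values were seen. Positions are mm9 (GENCODE vM1), the authors' build, and near-identical loci were found with BLAST 2.17.0. The scripts were tested on simulated data.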

Additional observations from a re-analysis of the deposited data

How the results depend on the processing

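Over all genes, 4309 were called, and 3206 to 4462 over the alternatives, with 4298 under the mouse as a replicate block and 4462 with edgeR and the replicate block, and the paired fits changed no call of a member. The count of members called higher stayed within 2 to 3. The count called lower was 1, 0 to 1 on leaving out a library in turn, and 0 without both glands with muscle transcripts. Signs turned as follows, with no call before or after. The log2 difference of Hk2 ranged from -0.62 to 0.19 on leaving out a library and was 0.85 without both glands. That of Pfkl was 0.12 without both glands, and that of Ldha was -0.02 with upper-quartile library sizes and -0.12 to 0.16 on leaving out a library. The difference between tumors and glands in the log2 ratio of Slc2a1 to Slc2a3 ran from -0.83 to 0.06. For the log2 ratio of Aldoa to Aldoc this difference ran from -0.23 to 0.64. The cause of these changes of sign was not tested. Among other scalings, upper-quartile library sizes moved the median log2 fold change of all genes the most, by -0.063. Slc16a3 rested on 6 to 9 fragments per gland. There are 3 animals, and 3 against 3 cannot give an exact p under 0.1.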

Other observations

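Glycogen metabolism, which stores and releases glucose 6-phosphate, mostly fell: 8 of its 9 listed genes were called lower in tumors and 0 higher, with a median log2 fold change of -2.02. Gys2, the glycogen synthase known from liver, had the largest fall, from 128, 156 and 97.4 CPM in glands M11035, M11640 and M9232 to 1.67, 0.786 and 0.150 CPM in the tumors of the same mice (log2 fold change -6.68 ± 0.41, adjusted p = 9.22e-06, limma). Pygl, a glycogen phosphorylase, fell from 297 ± 122 to 36.4 ± 5.13 CPM (-2.95), and the branching enzyme Gbe1 from 319 ± 133 to 52.2 ± 5.87 CPM (-2.53). The muscle phosphorylase Pygm read 103, 35.0 and 0.958 CPM in the glands, in the order of their muscle marker sums (5143, 1951 and 12.3 CPM), and 0.150 to 0.262 CPM in the tumors, all of them under the floor of 3 fragments. The count of genes called lower was 4 without gland M11640, 5 without tumor T11035, and 6 without gland M11035, tumor T11640 or tumor T9232. It was 7 with a pseudocount of 2 and stayed at 8 without gland M9232. Without both glands with muscle transcripts the median log2 difference was -1.06. Adipocyte marker sums (6598 to 12372 CPM in glands, 264 to 417 CPM in tumors) moved with this list, and their part in it was not tested.

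In the pentose phosphate branch, which makes NADPH and ribose from glucose 6-phosphate, 3 of 8 genes fell and 0 rose, with a median of -0.86. Tkt, transketolase, had the largest fall, from 193, 269 and 121 CPM to 22.0, 16.8 and 17.5 CPM (log2 fold change -3.27 ± 0.28, adjusted p = 4.24e-05, limma), and Pgd and Taldo1 fell less (-1.12 and -1.15). Without both glands with muscle transcripts Tkt was the 1 gene called (-2.67), and without gland M11640 there were 2. Of 6 gluconeogenic genes 1 fell and 0 rose: Pck1, the cytosolic PEP carboxykinase that also serves glycerol synthesis in fat, went from 1250.4, 1567 and 796 CPM to 6.88, 4.98 and 0.450 CPM (-8.43 ± 0.67, adjusted p = 3.26e-05, limma). The other 5 were not called, and the median of the 6 was -0.28. Fbp1, chosen after its values were seen, read 0, 0.165 and 0 CPM in glands and 1.67, 2.75 and 0 CPM in tumors, and it was called higher by edgeR with the replicate block (adjusted p = 0.0256), by DESeq2 (adjusted p = 0.0303) and by limma without tumor T9232 (adjusted p = 0.00679), against 0.113 in the reported limma fit.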
